A study of Mus musculus with 11 samples.

Results

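The enzymes of glycolysis, of the pyruvate dehydrogenase step and of the tricarboxylic acid (TCA) cycle were examined in bulk RNA sequencing of mouse RPE/choroid. They were chosen by name from a list of 40 genes, of which 39 are in the table of 14602 genes: 16 of 17 for glycolysis, 8 of 8 for pyruvate dehydrogenase and its kinases, and 15 of 15 for the TCA cycle. The missing symbol is Pkm (pyruvate kinase), which the table lists under its older symbol Pkm2, and its values are given apart. All 39 passed edgeR's filter on low counts, and the lowest count of any of them in any library was 144.

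The libraries came from C57BL/6J mice that were 12 months old at collection. There were 6 naïve controls, age matched and never treated, and 5 laser treated samples from mice given 2RT nanosecond laser when 9 months old and then left for 3 months. The laser was applied to separate spots of 1 eye, the neural retina was taken off, and the remaining tissue was lysed whole, so each library holds untreated RPE and choroid between the spots as well as the treated areas. The labels do not state that each library is 1 mouse, and the p-values measure the spread between these libraries.

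Glycolysis splits glucose into pyruvate in the cytosol, and lactate dehydrogenase converts pyruvate to lactate and back. The pyruvate dehydrogenase complex, which its kinases switch off, turns pyruvate into acetyl-CoA in the mitochondrion, where the TCA cycle oxidises it. In the eye, photoreceptors are known for a high rate of glycolysis, whereas the RPE is known to oxidise lactate and other fuels and to pass glucose from the choroid on to the photoreceptors.

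Total counts ranged from 25700881 to 36766020 in the naïve controls and from 32094560 to 38755994 after laser. RPE markers were abundant in every library, since 12 genes such as Rpe65 summed to between 78772 and 133139 CPM (counts scaled by library size, here with TMM factors). Markers of rods were also present: 12 neural retina genes such as Sag summed to between 6893 and 27188 CPM in the naïve controls and between 4645 and 20390 CPM after laser. The sum was above 20000 CPM in naïve control libraries 1 and 3 and laser treated libraries 3 and 4, and at most 11534 CPM in the other 7. Skeletal muscle markers summed to 59.9 to 631 CPM in the controls and 66.0 to 944 CPM after laser, and Schwann cell markers to 125 to 380 CPM and 285 to 968 CPM. In bulk tissue, fewer cells of a type and less RNA per cell cannot be told apart.

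Within the naïve controls the glycolytic genes spanned the widest range of levels, here as CPM per kb of the longest annotated transcript. Aldoa, the main aldolase, which splits fructose bisphosphate, was the most abundant of the 39 at 1884 ± 109 (SD, n = 6), followed by the enolase Eno1 at 799 ± 62.9. The cytosolic malate dehydrogenase Mdh1, which also serves the malate-aspartate shuttle, came next at 473 ± 29.5 and was the most abundant gene of the TCA list. The lactate dehydrogenases Ldhb at 413 ± 86.9 and Ldha at 319.8 ± 117 followed, and each was within its own SD of the gene before it. Pdhb, a subunit of the first enzyme of the pyruvate dehydrogenase complex, led its list at 95.1 ± 11.3. The lowest levels were those of the kinase Pdk4 at 3.47 ± 1.74, the kinase Pdk1 at 4.92 ± 2.07 and the hexokinase Hk2 at 5.63 ± 4.36, whose libraries overlapped. Pkm2 stood at 479 ± 88.6, between Eno1 and Mdh1.

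**Figure D1:**
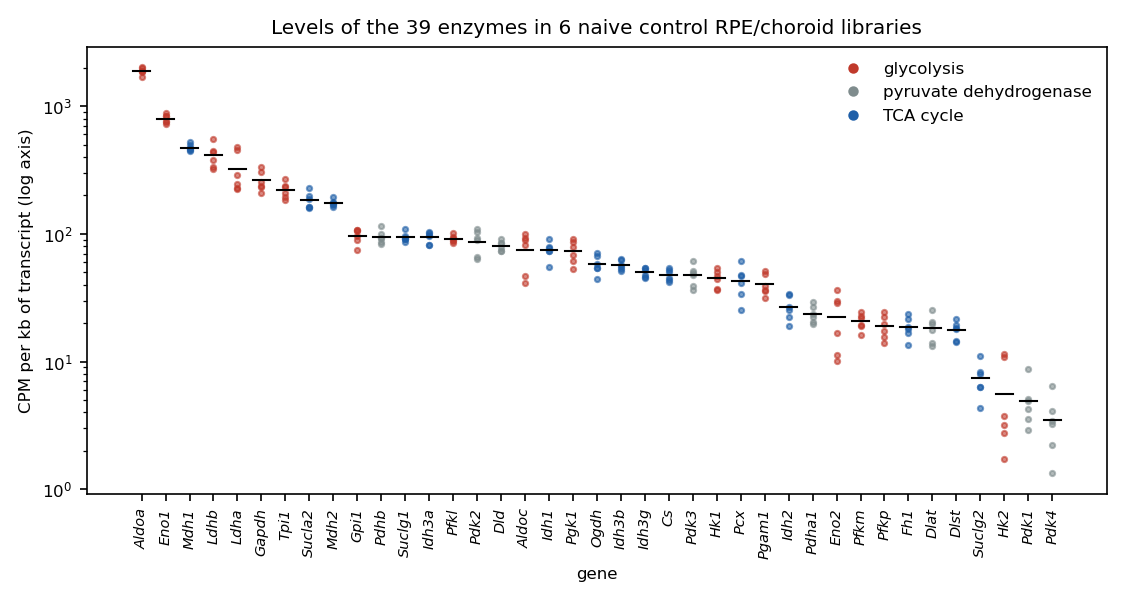
Level of each of the 39 enzymes in the 6 naïve control libraries, in CPM per kb of the longest annotated transcript on a log axis. Points are libraries, black bars are means and colours mark the lists; Aldoa was highest at 1884 and Pdk4 lowest at 3.47.

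The genes also differed in how far the naïve controls agreed among themselves. The coefficient of variation of CPM over the 6 controls had a median of 18.6% in glycolysis, 20.4% in the pyruvate dehydrogenase list and 15.3% in the TCA cycle. Glycolysis held both ends of the scale, from 5.80% for Aldoa to 77.5% for Hk2. Within the TCA cycle the range was 6.22% for Mdh2 to 31.2% for Suclg2, a subunit of the GTP-forming succinyl-CoA ligase.

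Which isoform dominates each step was read per kb. In the naïve controls the Hk1 ratio to Hk2 averaged 10.1-fold, that of Pfkl to Pfkm 4.47-fold and that of Pfkl to Pfkp 4.93-fold, so that the liver form led among the phosphofructokinases. Aldoa exceeded Aldoc 26.4-fold and Eno1 exceeded Eno2 40.2-fold, Aldoc and Eno2 being the forms known from neurons. Ldha and Ldhb were close, with a ratio of 0.748, and their order turned over among the libraries: the log2 ratio of their counts ran from -0.82 to 1.00. The ratio of Suclg2 to Sucla2, the subunit of the ATP-forming succinyl-CoA ligase, was 0.0393.

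The main comparison asked whether these enzymes differed between laser treated and naïve RPE/choroid. With edgeR's quasi-likelihood test, none of the 39 passed an adjusted p of 0.05, and neither did any of the 14602 genes (0.00% called, while 2325 genes, or 15.9%, had an unadjusted p under 0.05). The differences of the members are therefore given as values. At an unadjusted p under 0.05, 5 of 16 glycolytic genes were higher after laser and 0 lower, 1 of 8 pyruvate dehydrogenase genes was higher and 2 lower, and 5 of 15 TCA cycle genes were higher and 0 lower. Over all genes 8.24% were higher and 7.68% lower by the same rule. Without any 1 library in turn these counts ran from 2 to 6 in glycolysis, 1 to 4 in the pyruvate dehydrogenase list and 2 to 6 in the TCA cycle, in either direction. The counts over all genes moved too. Without laser treated library 2, 818 of 14602 were higher and 867 lower. Without naïve control library 6, 1359 of 14539 were higher and 1412 lower. With DESeq2, a negative binomial test with another estimate of the spread, 2 members were called higher at an adjusted p under 0.05, Pfkl (adjusted p = 0.026) and Pdk2 (adjusted p = 0.048), where 3.19% of the genes it tested were.

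Set side by side, glycolysis and the TCA cycle had similar differences between the groups. The median log2 fold change, laser treated minus naïve, was 0.16 in glycolysis (13 of 16 genes higher) and 0.22 in the TCA cycle (10 of 15 higher), against -0.02 over all genes, of which 48.5% were higher. In the pyruvate dehydrogenase list it was -0.21, with 2 of 8 higher. Without single libraries the medians ran from 0.080 (without laser treated library 4) to 0.24 in glycolysis, from 0.15 to 0.23 in the TCA cycle and from -0.24 to -0.13 (without naïve control library 4) in the pyruvate dehydrogenase list. The glycolysis median minus the TCA cycle median was -0.06, where the difference of the mean levels varied between libraries with an SD of 0.31. Leaving Ldha and Ldhb out of glycolysis and the cytosolic, NADP-dependent and anaplerotic genes Idh1, Mdh1, Idh2 and Pcx out of the TCA cycle gave the same medians.

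**Figure D2:**
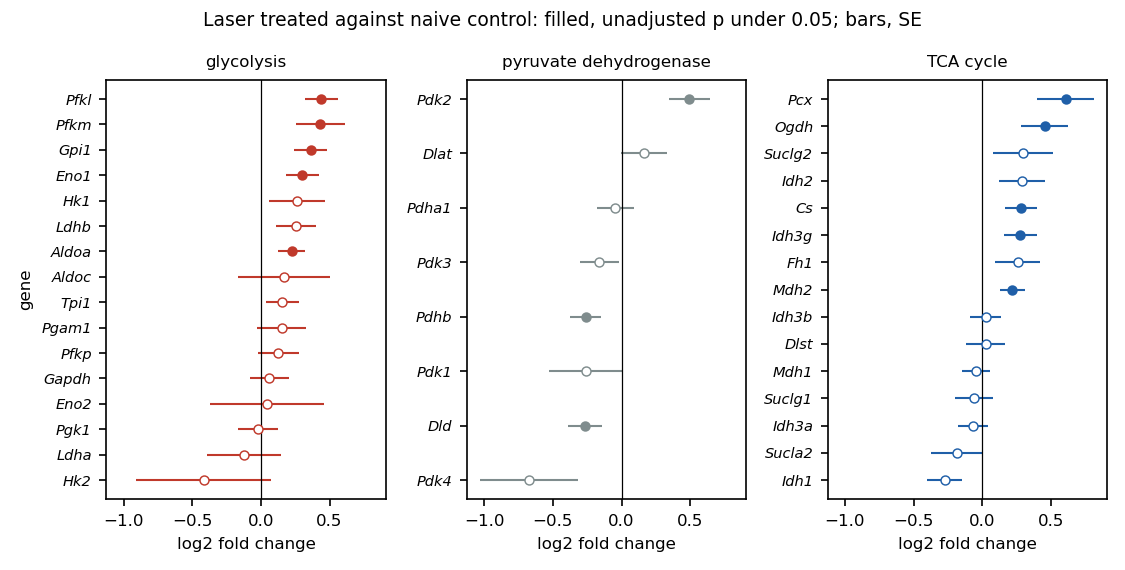
Log2 fold change, laser treated against naïve, of each enzyme with its SE, by list. Filled points have an unadjusted p under 0.05; 11 of these 13 lie above 0, and Pdhb and Dld lie below it.

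In glycolysis the smallest p was that of Pfkl, the liver form of phosphofructokinase, which carries out the committed step (chr10:77986947-78010083, minus strand, GRCm38). Its lowest, median and highest control values were 319, 339.7 and 378 CPM, and the laser treated libraries had 378, 498, 507, 562 and 379 CPM. Laser treated libraries 2, 3 and 4 lay above every control, and libraries 1 and 5 lay level with the highest of them. The log2 fold change was 0.44 (SE 0.12, edgeR adjusted p = 0.174). Its muscle counterpart Pfkm had a log2 fold change of 0.43 (SE 0.18, edgeR adjusted p = 0.263), and the platelet form Pfkp 0.13 (SE 0.15, edgeR adjusted p = 0.756).

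Gpi1, glucose-6-phosphate isomerase, which makes fructose 6-phosphate (chr7:34201330-34230336, minus strand), was one of 2 members whose groups did not overlap, both in glycolysis and both higher after laser. Groups separated in this direction in 1.40% of all genes, and in the other direction in 0.863%, where no member was found. The controls had 241, 319.6 and 345 CPM (lowest, median and highest), and the laser treated libraries 365, 384, 412, 464 and 363 CPM. The lowest laser treated library exceeded the highest control by less than the SD of either group. The log2 fold change was 0.36 (SE 0.12, edgeR adjusted p = 0.195). Exons of Gpi1 overlap those of a long noncoding RNA on the opposite strand, and reads from the pair cannot be told apart without strand. In all, 10 members have exons that overlap another annotated gene, and Pfkm, Gapdh and Mdh1 are among them.

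Aldoa (chr7:126795234-126809108, minus strand) was the other member whose groups did not overlap. Its control values were 2642, 2914 and 3119.7 CPM, and after laser they were 3154, 3676, 3897, 3199.6 and 3127 CPM. Libraries 1, 4 and 5 sat just above the highest control, and libraries 2 and 3 further up, for a log2 fold change of 0.23 (SE 0.10, edgeR adjusted p = 0.284). An exon of Fam57b overlaps it on the opposite strand, and in the TPM values of the assembled transcripts the difference had the other sign (-0.44, SE 0.57).

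Eno1, the enolase found in most tissues (chr4:150236721-150248879, plus strand), had 1458, 1631 and 1776 CPM in the controls and 1739.8, 2362, 2273, 1991 and 1622 CPM after laser. Libraries 2, 3 and 4 were above all controls, and libraries 1 and 5 were among them. The log2 fold change was 0.30 (SE 0.12, edgeR adjusted p = 0.244). Gapdh, glyceraldehyde-3-phosphate dehydrogenase and a housekeeping gene of the study's PCR (chr6:125161715-125166467, minus strand), had 691, 808 and 1097 CPM in the controls and 873, 797, 1139, 845 and 845 CPM after laser. The groups overlapped, with a log2 fold change of 0.06 (SE 0.14, edgeR adjusted p = 0.89), and the sign turned without laser treated library 3 (-0.037) or without naïve control library 4 (-0.0065).

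The remaining glycolytic genes did not reach an unadjusted p of 0.05. Their log2 fold changes ran from -0.42 (SE 0.49) for Hk2 to 0.26 (SE 0.20) for Hk1, with Ldhb at 0.26, Aldoc at 0.17, the triose phosphate isomerase Tpi1 at 0.16, the phosphoglycerate mutase Pgam1 at 0.15, Eno2 at 0.05, the phosphoglycerate kinase Pgk1 at -0.02 and Ldha at -0.12. Pkm2 had 0.19 (SE 0.19, edgeR adjusted p = 0.699).

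**Figure D3:**
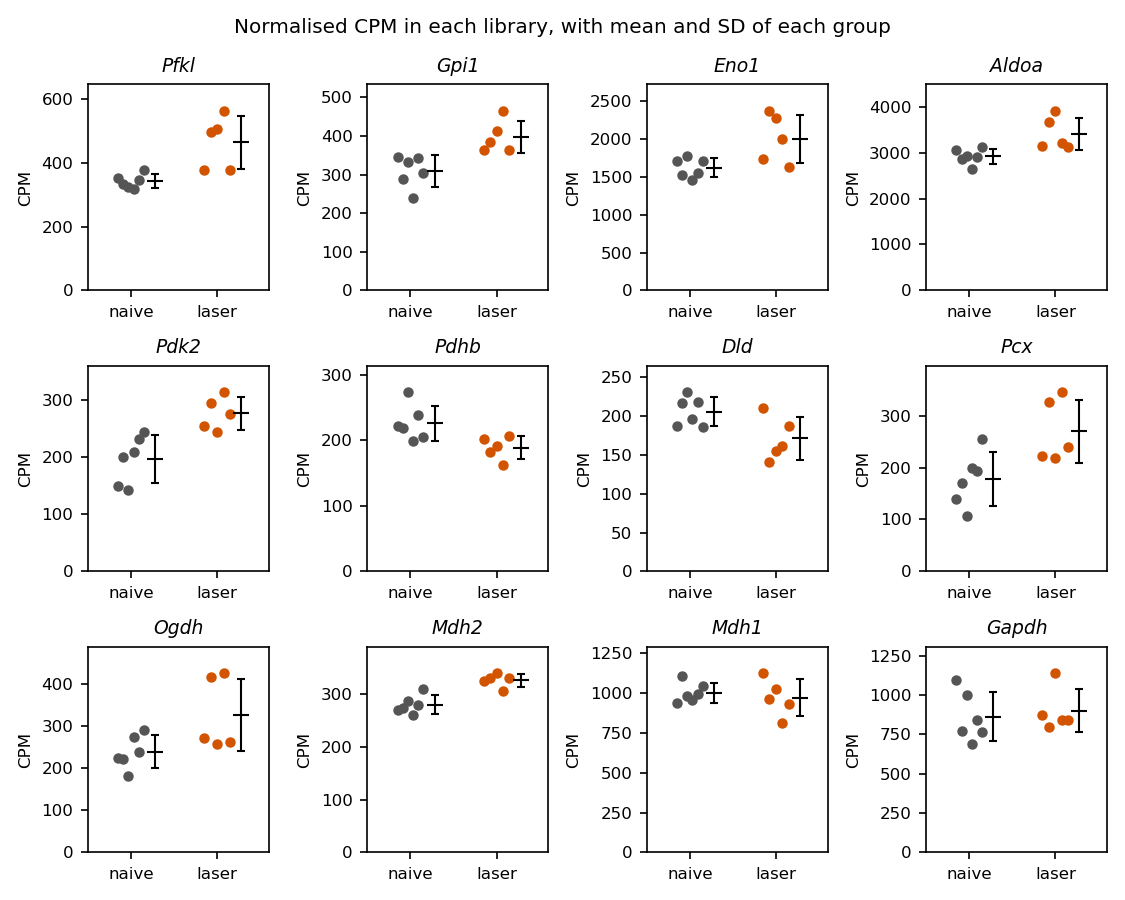
CPM of the 12 enzymes described by library, with 6 naïve control and 5 laser treated points and the mean and SD of each group; axes start at 0. Gpi1 and Aldoa are the 2 genes whose groups do not overlap.

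At the entry of pyruvate into the mitochondrion, Pdk2 (chr11:95026258-95041354, minus strand), a kinase that switches the pyruvate dehydrogenase complex off, was higher after laser. The controls had 142, 205 and 243 CPM, and the laser treated libraries 255, 293, 243, 312 and 275 CPM. The highest control and the lowest laser treated library differed by less than 1 CPM, and the other laser treated libraries lay above every control. The log2 fold change was 0.49 (SE 0.15, edgeR adjusted p = 0.179).

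Within the complex itself, values were negative for the E1 beta subunit Pdhb (chr14:8165996-8173025, minus strand) and for Dld, the dihydrolipoamide dehydrogenase that the complex shares with the TCA cycle's oxoglutarate dehydrogenase (chr12:31331277-31351453, minus strand). Pdhb had 199, 220.3 and 273 CPM in the controls and 203, 182, 191, 162 and 206 CPM after laser, a log2 fold change of -0.26 (SE 0.11, edgeR adjusted p = 0.28). Dld had 187, 207 and 231 CPM in the controls and 211, 142, 155, 161 and 188 CPM after laser, a log2 fold change of -0.27 (SE 0.12, edgeR adjusted p = 0.305). The groups overlapped in both genes: laser treated libraries 2, 3 and 4 were below every control in each, and libraries 1 and 5 were among the controls.

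Of the other kinases, Pdk4, the form known to be induced by fasting, had the most negative value of the 39 at -0.68 (SE 0.36, edgeR adjusted p = 0.379). Its controls spread from 4.65 to 22.3 CPM and enclosed every laser treated library (11.0, 7.12, 7.11, 6.51 and 6.07 CPM). Pdk1 was at -0.26 (SE 0.26) and Pdk3 at -0.16 (SE 0.14). The E1 alpha subunit Pdha1 was at -0.05 (SE 0.14) and the acetyltransferase Dlat at 0.16 (SE 0.17).

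In the TCA list the largest value was that of Pcx, pyruvate carboxylase, which refills oxaloacetate (chr19:4510472-4621752, plus strand). The controls had 106, 182 and 256 CPM, and the laser treated libraries 222, 327, 218, 345 and 239.8 CPM. Libraries 2 and 4 stood above all controls and the other 3 below the highest control, for a log2 fold change of 0.61 (SE 0.21, edgeR adjusted p = 0.204). Ogdh, the first subunit of oxoglutarate dehydrogenase (chr11:6291633-6356642, plus strand), had 182, 232 and 290.5 CPM in the controls and 271, 417, 258, 425 and 263 CPM after laser. Again libraries 2 and 4 stood above all controls and the other 3 lay among them, and the log2 fold change was 0.45 (SE 0.17, edgeR adjusted p = 0.232).

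Mdh2, the mitochondrial malate dehydrogenase (chr5:135778480-135790398, plus strand), varied least of the TCA cycle genes. Its controls had 260.1, 277 and 311 CPM, and the laser treated libraries 325, 331, 339.9, 306 and 330.4 CPM, of which all but library 4 exceeded every control. The log2 fold change was 0.22 (SE 0.09, edgeR adjusted p = 0.255), and in the TPM values it had the other sign (-0.59, SE 0.46). Its cytosolic counterpart Mdh1 (chr11:21556787-21572367, minus strand) had 941, 986 and 1108 CPM in the controls and 1125, 966, 1028, 811 and 930.3 CPM after laser. Those groups overlapped, with laser treated library 1 above every control and libraries 4 and 5 below every control. The log2 fold change was -0.05 (SE 0.10, edgeR adjusted p = 0.887).

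The citrate synthase Cs, which opens the cycle, had a log2 fold change of 0.28 (SE 0.12, edgeR adjusted p = 0.266), and Idh3g, a subunit of the NAD-dependent isocitrate dehydrogenase, 0.28 (SE 0.12, edgeR adjusted p = 0.29). The other subunits of that enzyme were at -0.07 (Idh3a) and 0.02 (Idh3b), with SEs of 0.11. The NADP-dependent forms had opposite signs, 0.29 (SE 0.17) for the mitochondrial Idh2 and -0.27 (SE 0.13) for the cytosolic Idh1. The fumarase Fh1 was at 0.26, Dlst of the oxoglutarate dehydrogenase complex at 0.02, and the succinyl-CoA ligase subunits Suclg2, Suclg1 and Sucla2 at 0.29, -0.06 and -0.19, all within 2 SEs of 0.

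The ratio of 2 genes within a library does not depend on how the library was scaled, but it was not corrected for transcript GC content. Between the groups, 10 pairs of genes were compared with the exact two-sided permutation test, adjusted over the 10. None passed an adjusted p of 0.05, though 3 had an unadjusted p under it. Pdk2 over Pdk4 had a mean log2 ratio of counts of 4.15 ± 0.59 (SD, n = 6) in the controls and 5.21 ± 0.42 (n = 5) after laser (exact p = 0.013, adjusted p = 0.065). Mdh1 over Mdh2 had 1.84 ± 0.10 and 1.57 ± 0.14 (exact p = 0.0065, adjusted p = 0.065). Idh1 over Idh2 had 1.86 ± 0.45 and 1.29 ± 0.30 (exact p = 0.037, adjusted p = 0.123). Without laser treated library 1 the first 2 passed, with an adjusted p of 0.024 each by the same exact test. The other 7 pairs had exact p-values of 0.097 or more, and differences between -0.40 for Ldha over Ldhb and 0.57 for Suclg2 over Sucla2.

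The level of glycolytic genes differed between libraries more than between groups. The mean log2 CPM of the 16 genes was 8.27 and 8.20 in naïve control libraries 1 and 3 and 8.36 and 8.37 in laser treated libraries 3 and 4, and between 7.69 and 8.05 in the other 7 libraries. These 4 are the libraries with neural retina markers above 20000 CPM. The mean of the 15 TCA cycle genes lay between 7.08 and 7.34 in the controls and between 7.24 and 7.41 after laser, and in the same 4 libraries it was 7.09, 7.08, 7.24 and 7.28. Glycolysis therefore exceeded the TCA cycle by 1.09 to 1.18 log2 units in those 4 libraries and by 0.41 to 0.77 in the other 7.

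A fit with the group and the neural retina marker level together gave each gene a slope, the change in its log2 level per log2 unit of the markers. At an adjusted p under 0.05, the slope was positive in 4 of 16 glycolytic genes, in 0 of 8 pyruvate dehydrogenase genes and in 0 of 15 TCA cycle genes, where it was in 2.35% of all genes; none of the 39 had a negative slope at this threshold. The 4 were Hk2 at 0.91 (SE 0.16, edgeR adjusted p = 0.0049), Eno2 at 0.78 (SE 0.14, edgeR adjusted p = 0.0088), Ldha at 0.54 (SE 0.06, edgeR adjusted p = 0.00029) and Pgam1 at 0.30 (SE 0.07, edgeR adjusted p = 0.043). Hk2, Eno2 and Ldha are known from photoreceptors or neurons. Pkm2 had a slope of 0.36 (SE 0.06, edgeR adjusted p = 0.0027). Ldhb, the form favouring lactate as a fuel, had a slope of -0.23 (SE 0.06, edgeR adjusted p = 0.085), and Hk1 one of 0.32 (SE 0.09, edgeR adjusted p = 0.089). The median slope was 0.16 in glycolysis, -0.13 in the pyruvate dehydrogenase list, -0.06 in the TCA cycle and -0.02 over all genes.

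By library, Hk2 had 63.7 and 59.6 CPM in naïve control libraries 1 and 3 and 39.2 and 30.2 CPM in laser treated libraries 3 and 4, and between 9.47 and 20.8 CPM in the other 7. Ldha had 822 and 876 CPM and 746 and 746 CPM in the same libraries, and between 362 and 523 CPM in the others. Both genes thus separated the 4 libraries from the other 7 in either group.

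**Figure D4:**
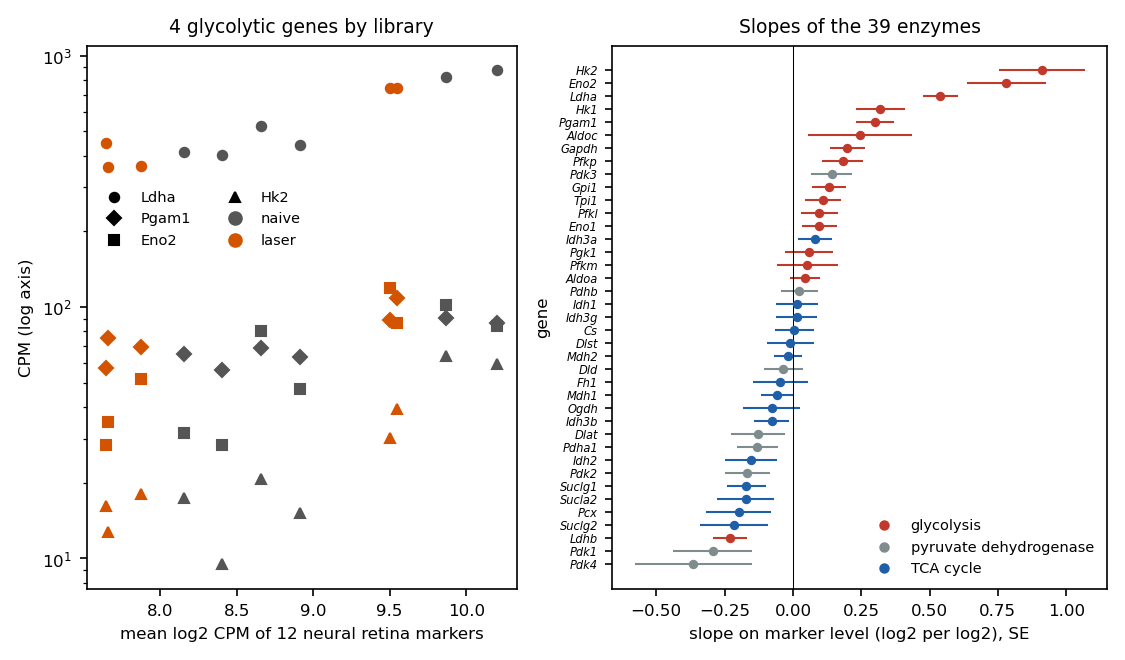
Left, CPM (log axis) of Ldha, Pgam1, Eno2 and Hk2 in each of the 11 libraries against the mean log2 CPM of 12 neural retina markers. Right, the slope of each of the 39 enzymes on that level with its SE: Hk2 (0.91), Eno2 (0.78) and Ldha (0.54) are at the top, and the TCA cycle genes lie between -0.22 and 0.08.

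With the marker level in the fit, all 16 glycolytic genes had a positive log2 fold change after laser, with a median of 0.29, and 7 had an unadjusted p under 0.05 against 7.76% of all genes higher by this rule. A positive value was seen in 7185 of all 14602 genes in this fit, and their median was -0.01. The TCA cycle median was then 0.18 and the pyruvate dehydrogenase median -0.18. No gene of these lists passed an adjusted p of 0.05 there. The deposited transcript files open with a mark of R1 or R2 that the sources used here do not explain, and R1 stands for naïve control libraries 1 to 3 and laser treated libraries 1 and 2. Within R1 the median log2 fold change of glycolysis was -0.03, and within R2 it was 0.41. At an unadjusted p under 0.05, 1 glycolytic gene was higher within R1 (Ldhb) and 3 were lower (Hk2 at -1.55, Ldha at -0.94 and Aldoc at -0.75), and within R2, 3 were higher and 0 lower. By this rule, 1172 of 14489 genes were higher and 1375 lower within R1. Within R2, 427 of 14517 genes were higher and 476 lower. In R1 the libraries rich in neural retina markers were controls and in R2 they were laser treated. The TCA cycle medians were 0.29 and 0.11, with 2 genes higher and 0 lower by the same rule in R1 and 0 higher and 1 lower (Sucla2) in R2, and those of the pyruvate dehydrogenase list -0.01 and -0.20.

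The 4 genes that moved with the neural retina markers are shown with the stretch around their start, since genes that vary together invite a look at their promoters. The sequences are RefSeq's, GRCm38.p6, from 250 bases before to 50 after the start, on the gene's strand: Hk2 at chr6:82774405-82774704, minus strand; Eno2 at chr6:124769624-124769923, minus strand; Ldha at chr7:46845554-46845853, plus strand, the first of its 2 windows; and Pgam1 at chr19:41911621-41911920, plus strand. Capitals mark ACGTG or CACGT, the core bound by hypoxia-inducible factors (its palindrome CACGTG, which is also an E-box, counts on both strands), and TAATCC or GGATTA, bound by the photoreceptor factor CRX.
Hk2: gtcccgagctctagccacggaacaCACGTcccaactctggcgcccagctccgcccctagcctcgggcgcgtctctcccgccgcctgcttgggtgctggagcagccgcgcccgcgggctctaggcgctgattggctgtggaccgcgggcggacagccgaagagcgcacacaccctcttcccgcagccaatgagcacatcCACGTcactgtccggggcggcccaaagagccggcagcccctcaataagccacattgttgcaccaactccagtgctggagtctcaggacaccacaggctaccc
Eno2: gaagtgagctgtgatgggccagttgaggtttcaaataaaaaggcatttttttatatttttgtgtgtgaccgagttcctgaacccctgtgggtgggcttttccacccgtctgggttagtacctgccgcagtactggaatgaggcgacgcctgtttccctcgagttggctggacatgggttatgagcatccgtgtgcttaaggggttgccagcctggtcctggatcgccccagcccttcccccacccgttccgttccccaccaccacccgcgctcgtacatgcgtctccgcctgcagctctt
Ldha: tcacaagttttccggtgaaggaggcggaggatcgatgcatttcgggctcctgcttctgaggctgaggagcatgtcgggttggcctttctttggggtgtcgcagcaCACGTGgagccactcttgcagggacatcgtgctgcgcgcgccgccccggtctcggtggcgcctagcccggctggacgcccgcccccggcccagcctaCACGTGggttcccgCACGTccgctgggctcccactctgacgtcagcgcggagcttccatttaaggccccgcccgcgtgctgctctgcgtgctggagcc
Pgam1: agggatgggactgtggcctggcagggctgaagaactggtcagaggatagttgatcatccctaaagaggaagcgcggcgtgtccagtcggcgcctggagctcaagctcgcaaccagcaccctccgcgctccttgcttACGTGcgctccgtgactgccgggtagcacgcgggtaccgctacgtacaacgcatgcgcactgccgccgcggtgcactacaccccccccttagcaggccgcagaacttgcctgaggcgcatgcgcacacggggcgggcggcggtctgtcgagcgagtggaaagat

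The hypoxia core stood in 2 places in the Hk2 window, in 3 in that of Ldha and in 1 in that of Pgam1, and the Eno2 window held neither motif. TAATCC stood in the other window of Ldha and in none of those printed. Over the lists, 9 of 16 glycolytic genes (56.2%), 3 of 8 pyruvate dehydrogenase genes (37.5%) and 4 of the 14 TCA cycle genes in the RefSeq table (28.6%) had the hypoxia core in a window, as did 21.8% of all 27025 genes there. TAATCC was found in 4 of 16, 0 of 8 and 2 of 14, and in 8.14% of all genes. A match is a description of letters and not of binding.

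Transcript GC content went with the difference between the groups. Across 14253 genes with a known transcript, Spearman's rank correlation between GC content and log2 fold change was 0.46, a value across genes, which are not independent replicates. Of 10 equal bins of genes by GC, the lowest had a median log2 fold change of -0.37 and the highest 0.30. The median GC content was 52.9% in glycolysis, 46.4% in the pyruvate dehydrogenase list and 47.7% in the TCA cycle, against 49.8% over all genes. The 11 members that were higher at an unadjusted p under 0.05 had 48.2% to 57.7% GC, and Pdhb and Dld, which were lower, had 46.4% and 40.6%. In the isoform pairs with an exact p under 0.05, the gene that gained after laser was the one richer in GC. Pdk2 had 56.9% against 44.9% for Pdk4, Mdh2 50.9% against 45.7% for Mdh1, and Idh2 55.6% against 43.8% for Idh1. No ratio was compared with the GC trend removed.

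With the trend on GC removed within each library, the median log2 fold change became 0.03 in glycolysis, -0.02 in the pyruvate dehydrogenase list and 0.13 in the TCA cycle, where 14 of 15 genes were then higher. Over all 14602 genes the median was 0.02, and 7543 were higher. At an unadjusted p under 0.05 only Cs remained of the 39 (log2 fold change 0.34, SE 0.15, edgeR adjusted p = 0.753), where 3.00% of all genes were higher by this rule. Gpi1 then had 0.27 (SE 0.13), Pfkl 0.21 (SE 0.13), Pcx 0.38 (SE 0.20) and Aldoa 0.01 (SE 0.14) in the same edgeR test. Pdk2 had 0.28 (SE 0.16), Eno1 0.08 (SE 0.15) and Pfkm 0.25 (SE 0.17), against 0.49, 0.30 and 0.43 without the removal. Pdhb had -0.12 (SE 0.13) and Dld 0.03 (SE 0.14), against -0.26 and -0.27. Of the TCA cycle genes with an unadjusted p under 0.05 before, Idh3g had 0.27 (SE 0.14), Mdh2 0.18 (SE 0.13) and Ogdh 0.34 (SE 0.19), against 0.28, 0.22 and 0.45 without the removal. With the GC trend removed and the replicate number as a block, all 15 TCA cycle genes had a positive value (median 0.18). At an unadjusted p under 0.05, 4 of them were higher and 0 lower. Of the 14539 genes in that fit, 666 were higher and 662 lower by this rule. A positive value was seen in 7678 of them, and their median was 0.03. The block rests on replicate numbers for which no pairing was found. Whether GC content acts in the tissue or in the amplification was not tested.

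**Figure D5:**
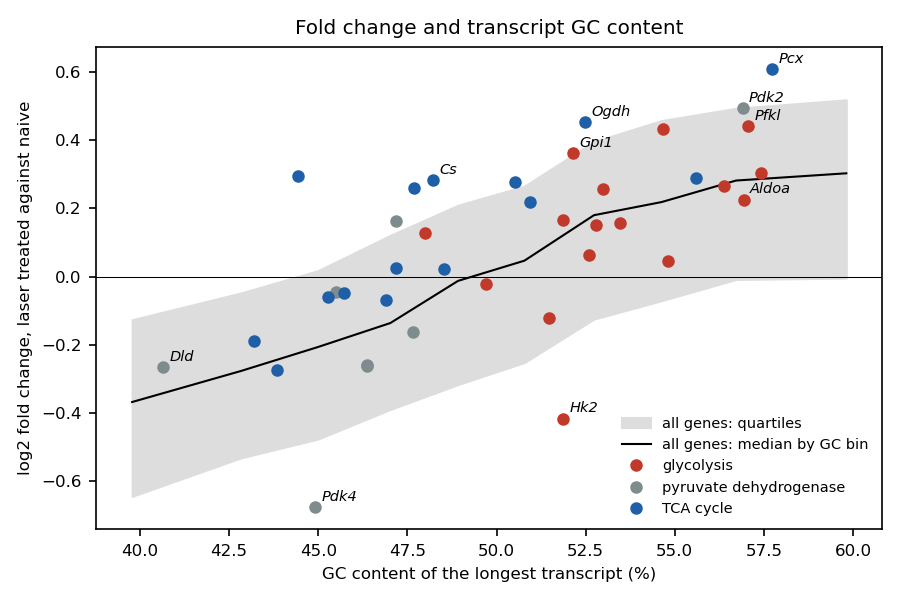
Log2 fold change, laser treated against naïve, of the 39 enzymes against the GC content of their longest transcript. The line and band give the median and the quartiles of all genes in 10 bins of GC content, rising from a median of -0.37 to 0.30. Pcx, Pdk2, Pfkl, Aldoa and Eno1 lie at the high GC end. Hk2 and Pdk4 lie below the band, and Cs, Suclg2, Fh1, Ogdh and Pcx are among the genes above it.

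The enzymes and transporters that feed these pathways or branch from them were listed as 48 further genes, of which 39 are in the table. At an unadjusted p under 0.05, 7 of the 39 were higher after laser and 2 lower, again with no edgeR adjusted p under 0.05, and 3 separated the groups upward. DESeq2 called, among others, Slc2a1, Hkdc1 and Slc16a8 higher (adjusted p = 0.013, 0.023 and 0.04). Slc2a1, the glucose transporter GLUT1 through which the RPE takes up glucose, had 500.3, 766 and 846 CPM in the controls and 991, 1262, 1156, 1060.3 and 944 CPM after laser. The groups did not overlap, with a log2 fold change of 0.58 (SE 0.14, edgeR adjusted p = 0.172), and it passed in edgeR without naïve control library 6 and laser treated library 5 (adjusted p = 0.042). Hkdc1, a hexokinase-like gene, had 10.9, 15.2 and 22.7 CPM and 31.0, 37.6, 24.5, 27.9 and 24.6 CPM, also without overlap, and a log2 fold change of 0.82 (SE 0.21, edgeR adjusted p = 0.172). In the fit with the GC trend removed Slc2a1 had 0.43 (SE 0.16) and Hkdc1 0.66 (SE 0.22), both still under 0.05 without adjustment.

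Slc16a8, the lactate transporter MCT3 of the RPE's choroidal face, was the most abundant of these genes per kb, at 1449.8 ± 272 CPM per kb in the controls. It had 2019, 2693 and 3353 CPM in the controls and 3599, 4915, 3579, 3181 and 3276 CPM after laser, with a log2 fold change of 0.50 (SE 0.15, edgeR adjusted p = 0.179). Libraries 1, 2 and 3 exceeded all controls, and libraries 4 and 5 did not. With the GC trend removed Slc16a8 had 0.28 (SE 0.21), no longer with an unadjusted p under 0.05 in edgeR. Slc16a1, the lactate transporter MCT1, was at -0.06 (SE 0.16).

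Pck2, a mitochondrial phosphoenolpyruvate carboxykinase, was low. It had 3.49, 8.89 and 10.1 CPM in the controls and 10.1, 12.6, 16.4, 10.8 and 15.7 CPM after laser. The groups did not overlap, and the log2 fold change was 0.80 (SE 0.30, edgeR adjusted p = 0.233). The aspartate aminotransferase Got2 had 164 ± 17.8 CPM in the controls (SD, n = 6) and 203 ± 21.2 CPM after laser (n = 5), a log2 fold change of 0.31 (SE 0.11, edgeR adjusted p = 0.221). G6pc3, a glucose-6-phosphatase, had 76.1 ± 14.2 and 102 ± 19.9 CPM and a log2 fold change of 0.43 (SE 0.16, edgeR adjusted p = 0.235). The groups overlapped in both of these genes. With the GC trend removed Got2 had 0.13 (SE 0.13) and G6pc3 0.21 (SE 0.19), neither with an unadjusted p under 0.05 in edgeR. Pck2 then had 0.76 (SE 0.29), still under 0.05 without adjustment.

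Hif1a, the hypoxia-inducible factor subunit that drives glycolytic genes, was one of the 2 lower genes, with 239, 268 and 317 CPM in the controls and 249, 179, 210.0, 269 and 204 CPM after laser, overlapping groups and a log2 fold change of -0.31 (SE 0.13, edgeR adjusted p = 0.265). With the GC trend removed it had -0.01 (SE 0.12). The succinate dehydrogenase subunits, the step of the TCA cycle shared with the respiratory chain, were at 0.02 (Sdha), -0.12 (Sdhb), 0.12 (Sdhc) and 0.25 (Sdhd), none with an unadjusted p under 0.05.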

How the data were processed

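RPE/choroidal RNA was pre-amplified with a SmartSeq v4 kit and made into NexteraXT libraries. The submitters' processing notes name bcl2fastq 2.18.0.12, Trim Galore, STAR 2.5.3a, featureCounts 1.5.3, StringTie 1.3.3 and edgeR 3.22.3, with mm10/GRCm38. The strand setting of the counting is not given in the sources used here. The authors deposited raw counts per gene, without normalization or pooling, and TPM of assembled transcripts per library, each with 1 exon. The table also holds the authors' own log2 fold changes, average abundances, F scores, p-values and FDR, which were not used.

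Counts of 14602 genes were compared with edgeR 4.0.16 in R 4.3.3 (TMM, filterByExpr, which removed 0 genes, robust quasi-likelihood fit, Benjamini-Hochberg over all genes, threshold 0.05), without covariates. Totals of 25700881 to 38755994 counts set the precision, which the SE gives. Length and GC content are of the longest GENCODE M21 transcript. Ratios had 0.5 added to each count. Motifs were searched on both strands in RefSeq promoters (GRCm38.p6). The members and lists were chosen with earlier results of these data known. Named are, per list, the 3 members with the smallest p, those whose groups do not overlap, the most abundant per kb and Gapdh, and, of the other pathway genes, those with an unadjusted p under 0.05 and the most abundant. The pairing of replicate numbers was checked and not found.

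Alternatives were DESeq2 1.42.0, other scalings and filters, limma 3.58.1 (voom with quality weights, and log2 TPM with a pseudocount of 1 or 0.1), a replicate block, the label as a covariate, removal of a loess trend (span 0.3) on GC content or length, and libraries left out. Fits within a label, the neural retina marker level as a covariate and Pkm2 added to glycolysis were chosen after seeing the data. The edgeR fit was tested on simulated data with 200 genes changed 4-fold. It recovered 68.5% of them, and 4.2% of its calls were unchanged genes. Smaller changes were not simulated. Python 3.11.15 was used for tables and exact tests. Some of the genes that this rule names are not reported here.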

Additional observations from a re-analysis of the deposited data

Results flagged for a closer look

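Of 78 groups of values tested (39 genes in each of 2 groups of libraries), 3 held a library far from the others by Dixon's criterion, which chance sets apart in about 5% of groups. Gapdh stood at 1139 CPM in laser treated library 3, against 797 to 873 CPM in libraries 1, 2, 4 and 5. Pdk1 stood at 45.6 CPM in naïve control library 4, where the other controls had 15.1 to 26.4 CPM. Pdk4 stood at 11.0 CPM in laser treated library 1, against 6.07 to 7.12 CPM in libraries 2 to 5.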

How the results depend on the processing

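No gene passed an adjusted p of 0.05 in the edgeR fit, and the same held under 22 of its 29 alternatives. Other counts of genes called were 502 with DESeq2, 389 without naïve control library 6 and laser treated library 5 together, 4 without laser treated library 2, 2 with a minimum of 10 counts, 1 with voom and 2 with TPM at either pseudocount. Without naïve control library 6 and laser treated library 5, Pfkl and Slc2a1 were among those called (adjusted p = 0.048 and 0.042 in edgeR). The counts of members at an unadjusted p under 0.05, in either direction, moved as follows. For glycolysis (5) they were 0 with the GC trend removed, 0 with the replicate block and the GC trend removed, 3 with the replicate block alone, 2 with the length trend removed, 2 with TPM at either pseudocount, 4 within R1 (of which 3 lower) and 3 within R2. For the pyruvate dehydrogenase list (3) they were 0 and 0 in the first of these fits, 1 with the label as covariate and 1 within R1 or R2. For the TCA cycle (5) they were 1 with the GC trend removed, 2 with the replicate block, 4 with both, 3 with the length trend removed, 3 with TPM, 2 within R1 and 1, a lower one, within R2. Left out singly, libraries gave 2 to 6, 1 to 4 and 2 to 6: glycolysis fell to 3 without naïve control library 2, 3, 4 or 5 or laser treated library 3 and to 2 without laser treated library 2, the pyruvate dehydrogenase list to 1 without naïve control library 5 or laser treated library 2, 3 or 4, and the TCA cycle to 3 without naïve control library 3, 4, 5 or 6 or laser treated library 1 or 3 and to 2 without laser treated library 2. Over all 14602 genes, 1203 were higher and 1122 lower by this rule in the main fit. With the GC trend removed they were 438 and 522, and with the length trend removed 887 and 939. Of 14539 genes, 1187 were higher and 1352 lower with the replicate block, and 666 and 662 with the block and the GC trend removed. With TPM at a pseudocount of 1 they were 1410 and 676 of 14191. The causes were not tested.

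The glycolysis median was 0.37 with TPM, 0.031 with the GC trend removed, 0.017 with the block as well and 0.080 to 0.24 without single libraries. The pyruvate dehydrogenase median moved to -0.10 with voom or TPM, to -0.020 with the GC trend removed, to 0.034 with the block as well and to -0.014 within R1. The TCA cycle median moved to 0.11 with TPM at either pseudocount, 0.13 with the GC trend removed and 0.11 within R2. The glycolysis minus TCA cycle median was 0.26 with TPM at either pseudocount, 0.30 within R2 and -0.31 within R1, and ran from -0.12 to 0.06 without single libraries. Of the isoform pairs, 1 passed with TPM (Pdk2 over Pdk4) and 0 to 2 without single libraries. Signs turned for Aldoa (-0.44) and Mdh2 (-0.59) with TPM at either pseudocount, for Dld (0.034), Mdh1 (0.11) and Gapdh (-0.044) with the GC trend removed and with the block as well (0.054, 0.16 and -0.063), for Mdh1 (0.073) and Gapdh (-0.17) within R1, and for Gapdh without single libraries (-0.037 to 0.14). TPM came from single-exon transcripts assigned to genes by position. The replicate numbers are only names: deviations of same-numbered libraries correlated between -0.01 and 0.28, and 2 of 5 laser treated libraries correlated best with their own number. With Pkm2 added, the glycolysis median was 0.17.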
